A study of Mus musculus with 9 samples.

Results

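The genes described here are 32 mouse genes of glucose breakdown and of the response to low oxygen, followed in plasmacytoid dendritic cells (pDCs). They were chosen by name and matched by symbol to the Ensembl identifiers of the gene count table. All 32 symbols were found among the 57126 genes of the table, and all 32 passed the filter on low counts that left 17555 genes for testing. The pDC, the dendritic cell specialised in type I interferon release, was taken from mice by fluorescence-activated sorting. The 3 groups of cells had received PBS (phosphate-buffered saline, as vehicle control), mtDNA (DNA of mitochondria) or Ox-mtDNA (the same kind of DNA in oxidized form). Each group had 3 RNA sequencing libraries, 9 in all. The labels give no strain, age, dose or time, and no genetic change in any group. They do not say whether the replicates were separate mice or cultures. The p-values below can only speak of the spread among these libraries, which may in part be technical.

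Glycolysis splits glucose into pyruvate in the cytosol and yields ATP without oxygen. Glucose enters through transporters of the Slc2a family, and pyruvate can be turned into lactate, which leaves through Slc16a transporters. When oxygen is low, prolyl hydroxylases no longer mark the transcription factor subunit HIF-1alpha for destruction, and HIF-1 then binds short DNA elements with the core RCGTG near its target genes. Most glycolytic genes are known HIF-1 targets. Activated dendritic cells are known to raise glycolysis, which serves biosynthesis and cytokine release.

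No member passed the adjusted threshold of 0.05 in any comparison with edgeR's quasi-likelihood test and Benjamini-Hochberg adjustment. Levels after Ox-mtDNA nevertheless lay above all PBS levels, with the smallest unadjusted p-values, for 3 of the 32: the glucose transporter Slc2a1, the lactate transporter Slc16a1 and the collagen hydroxylase P4ha1. In all, 6 members lay above all PBS levels, where the share over all genes was 7.39%. The 3 named were the members that were higher at an unadjusted p under 0.05, where the share over all genes was 5.88%. The mean levels of the 3 after Ox-mtDNA were 127, 34.3 and 92.9 CPM (library-size-scaled counts), against 36.7, 15.8 and 51.1 CPM after PBS. Pfkfb4, a bifunctional regulator of glycolytic flux, had the opposite order, with means of 13 CPM after Ox-mtDNA and 23.6 CPM after PBS. Ldha, Pdk1 and Hk2 showed no such separation. Neither did Vegfa, although it was higher after Ox-mtDNA than after PBS in each pair of same-numbered libraries. That order held for 12 of the 32 members and for 3632 of all 17555 tested genes.

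The promoters of the first 3 of these genes, and of Ldha for contrast, are shown to place the HIF-1 core element near their starts. Each sequence is the 250 bases before the start site, 5′ to 3′, taken from RefSeq on the GRCm38.p6 build. Capitals mark ACGTG or GCGTG on the printed strand, or CACGT or CACGC where the match lies on the other strand. Overlapping matches run together as CACGTG.
Slc2a1, chr4:119108495-119108744, plus strand: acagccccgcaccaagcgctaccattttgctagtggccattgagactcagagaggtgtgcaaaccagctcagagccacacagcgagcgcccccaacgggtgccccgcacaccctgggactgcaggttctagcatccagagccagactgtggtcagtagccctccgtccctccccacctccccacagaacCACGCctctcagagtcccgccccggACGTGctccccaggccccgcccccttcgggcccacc
Slc16a1, chr3:104638414-104638663, plus strand: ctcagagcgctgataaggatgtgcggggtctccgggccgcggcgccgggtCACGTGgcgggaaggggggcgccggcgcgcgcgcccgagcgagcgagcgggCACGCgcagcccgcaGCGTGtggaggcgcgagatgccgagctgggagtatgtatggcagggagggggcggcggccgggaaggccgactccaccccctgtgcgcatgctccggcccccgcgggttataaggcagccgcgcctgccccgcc
P4ha1, chr10:59323046-59323295, plus strand: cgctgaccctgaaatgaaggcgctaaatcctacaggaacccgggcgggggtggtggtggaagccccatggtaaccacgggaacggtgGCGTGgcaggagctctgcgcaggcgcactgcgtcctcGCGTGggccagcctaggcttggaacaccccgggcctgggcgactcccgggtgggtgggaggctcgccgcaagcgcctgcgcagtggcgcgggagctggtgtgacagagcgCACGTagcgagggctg
Ldha, chr7:46845554-46845803, plus strand: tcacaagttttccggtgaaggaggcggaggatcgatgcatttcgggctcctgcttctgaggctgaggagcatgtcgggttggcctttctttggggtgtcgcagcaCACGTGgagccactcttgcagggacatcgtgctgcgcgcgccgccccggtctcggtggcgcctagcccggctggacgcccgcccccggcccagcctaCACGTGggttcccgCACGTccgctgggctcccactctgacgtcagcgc

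A script searched both strands of the 250 upstream bases for ACGTG and for GCGTG. At least 1 of these motifs was found in 27 of the 30 members with a RefSeq start (90%), and in 60% of the 10756 tested genes with one. Over all 27025 genes with a start, the share was 41.5%. A gene was counted if any of its starts had a match. The 30 members had 44 starts and the 27025 genes 32851, and the shares were not adjusted for this. ACGTG was present in 18 members (60%) and in 24.6% of the tested genes. GCGTG was present in 20 members (66.7%) and in 48.7% of the tested genes. CACGTG, which contains ACGTG and is also the core of the E-box read by Myc and USF factors, was present in 6 members (20%) and in 9.73% of the tested genes. Slc2a3 and Bnip3l had no entry. The Ldha start shown held 5 matches, Slc16a1 held 4, P4ha1 held 3 and Slc2a1 held 2. These 4 were chosen with their levels known, so their numbers of matches are not compared with those levels. A match is a run of letters, not a measured binding site.

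The 9 libraries held between 16029951 and 25378884 counts. All 14 pDC markers were above 1 CPM in at least 1 library. So were all 8 B cell, all 8 conventional dendritic cell and all 7 monocyte and macrophage markers. Siglech, a defining pDC surface receptor, was between 1194 and 2440 CPM. The 3 libraries with the number 3 lay far from the other 6, along a first principal component with 69.5% of the variance. Xist, the X-inactivation RNA, was between 818 and 2087 CPM in them and at most 0.846 CPM in the other 6. Y-linked genes summed to 1.18 to 5.52 CPM in them and to 259 to 378 CPM in the others. This is the pattern of female cells in the libraries numbered 3 and of male cells in the other 6, so these did not share mice. Among 770 genes with a GC content over 60%, the median level in these 3 libraries differed from the mean of PBS replicates 1 and 2 by -3.19 to -4.04 log2 units. The pDC markers went both ways in these 3 libraries. Tlr9 was at 11.6 to 25.0 CPM against 50.6 to 396 CPM in the other 6, and Pacsin1 at 5.62 to 12.7 against 78.2 to 276 CPM. Bst2 was higher, at 1368.5 to 1528 against 617 to 1160 CPM. Replicate 2 of Ox-mtDNA also stood apart, with a pDC marker sum of 5014 CPM against 9043 to 13019 CPM after PBS. Its B cell markers summed to 719 CPM (320 to 475 CPM after PBS), while its 8 conventional dendritic cell markers summed to 545 CPM (993 to 1529 CPM after PBS). Other libraries left the PBS range by less for pDC markers: 8866 and 7390 CPM in mtDNA replicates 1 and 3, and 7824 CPM in Ox-mtDNA replicate 3. B cell markers were under the PBS range after mtDNA (210 to 248 CPM) and in Ox-mtDNA replicate 3 (146 CPM). Monocyte and macrophage markers summed to 506 to 804 CPM over the 9 libraries, T and NK cell markers to at most 10.7 CPM, and erythroid markers to less than 1 CPM. In bulk libraries of this kind, fewer cells of a type and less RNA per cell cannot be told apart.

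These library differences reached the members unequally. No member had a GC content over 60%, and their range was 41.3% to 57.9%. In all 3 groups, replicate 3 was the lowest library for 6 members: Vegfa, Egln1, Slc16a3, Eno2, Pfkl and Ddit4. It was the highest library in all 3 groups for 8 members: Slc2a3, Gpi1, Aldoc, Tpi1, Gapdh, Pgk1, Ldha and Ldhb. The remaining 18 were mixed. Egln1, the prolyl hydroxylase that sets HIF-1alpha turnover at normal oxygen, belongs to the first set. It was at 68.8, 56.2 and 4.25 CPM after PBS, at 51.1, 53.8 and 4.35 CPM after mtDNA, and at 58.4, 50.2 and 3.92 CPM after Ox-mtDNA. Its 3 groups overlapped fully, and its level differed by replicate number instead.

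**Figure D1:**
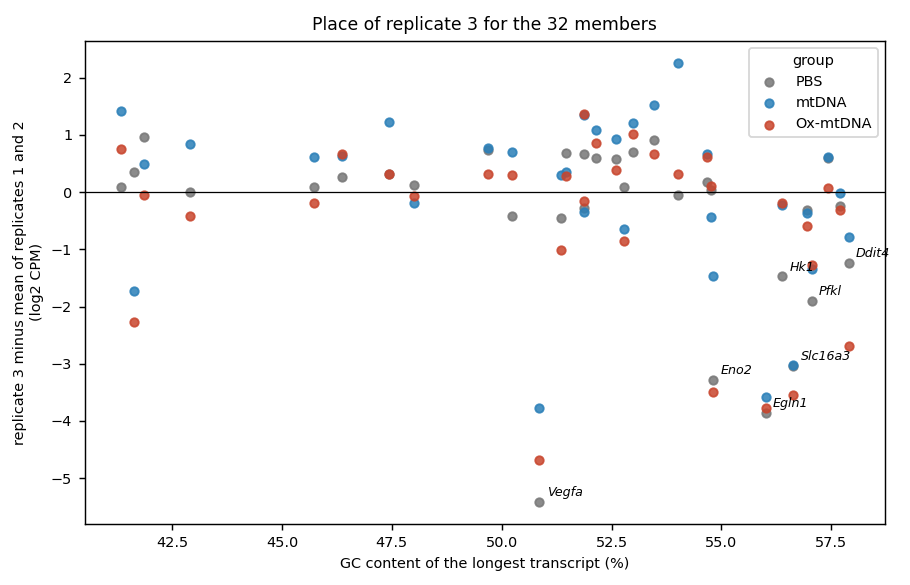
Place of replicate 3 for the 32 members. Each point is 1 member in 1 group (PBS grey, mtDNA blue, Ox-mtDNA red): x is the GC content of its longest transcript in percent, and y is the log2 CPM of replicate 3 minus the mean log2 CPM of replicates 1 and 2. Vegfa, Egln1, Slc16a3 and Eno2 lie lowest, Vegfa with a GC content of 50.9%, and members that lay more than 1 log2 unit under 0 in PBS are named.

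Levels of the members per kilobase of transcript spanned a wide range in PBS-treated pDCs. Gapdh, which oxidises glyceraldehyde phosphate, was highest with 552 CPM per kb. It was followed by the aldolase Aldoa with 317, the pyruvate kinase Pkm with 245, the isomerase Gpi1 with 164, the lactate dehydrogenase subunit Ldha with 162 and the enolase Eno1 with 99.3 CPM per kb. Gpi1 and Ldha differed by less than the spread between libraries. At the other end, the neuronal enolase Eno2 was at 0.11 and the lactate exporter Slc16a3 at 0.65 CPM per kb. Per kilobase, Aldoa was above Aldoc, Eno1 above Eno2 and Ldha above Ldhb. Aldoc made up 0.441% to 1.33% of both aldolases per kb after PBS, and Ldhb made up 4.75% to 5.03% of both lactate dehydrogenase subunits. Pfkp, the platelet-type phosphofructokinase, gave 56.7% to 77.7% of the 3 phosphofructokinase isoforms per kb after PBS. Pfkl, the liver type, gave 31.6% and 33.7% in replicates 1 and 2 and 10.6% in replicate 3. Fragments that aligned to several places were not counted, so levels of Gapdh, Aldoa, Pgk1, Pgam1, Eno1 and Ldha, which have processed pseudogene copies, are uncertain.

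The first comparison asked how members differed between Ox-mtDNA and PBS. Of the 32 members, 24 had a positive log2 fold change, with a median of 0.39 against 0.06 over all tested genes. In the same comparison, 11 of 14 pDC markers had a negative log2 fold change, with a median of -0.58, and levels of 5 did not overlap and were lower. All 5 tested T and NK cell markers of 8 were positive, with a median of 1.47, at summed levels of 1.67 to 3.42 CPM after PBS and 2.63 to 10.7 CPM after Ox-mtDNA. The part of these markers in the members' result was not tested. At an adjusted p under 0.05, 0 members were called by edgeR's quasi-likelihood test, where the share over all genes was also 0%. DESeq2 called 370 genes and limma-voom none, and 0 of these genes were members. At an unadjusted p under 0.05, 3 members were higher (Slc2a1, Slc16a1, P4ha1), where the share over all genes was 5.88%, and 1 was lower (Pfkfb4), where it was 3.93%. The unadjusted p of Pfkfb4 was 0.0495, and it was 0.0519 with DESeq2 size factors, 0.0758 with upper quartile scaling, 0.0566 with a filter of 1 CPM and 0.0948 with only the 6 libraries compared, all in edgeR. Levels did not overlap between the groups for 6 higher members (Slc2a1, Slc16a1, P4ha1, Gapdh, Slc2a3, Pfkfb3), against 7.39% of all genes, and for 1 lower member (Pfkfb4), against 8.08%. By libraries of the same number, the median difference of the members was 0.16, 0.57 and 0.16. The highest of these belonged to replicate 2, where the Ox-mtDNA library stood apart in its marker sums, and the part of that in the result was not tested.

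With the replicate number as a block, 8 members had an unadjusted p under 0.05 between Ox-mtDNA and PBS, but so did 19.1% of all genes. The 4 added to the list above were Slc2a3, Tpi1, Gapdh and Vegfa. None of the 8 passed the adjusted threshold in that fit. With replicates 1 and 2 only, the number was also 8, among 15.4% of all genes, with Ddit4 in place of Pfkfb4. Without replicate 2 of Ox-mtDNA, the median of the members was 0.21, the number at an unadjusted p under 0.05 was again 4, beside 11.7% of all genes, and Bnip3 and Pfkm stood in place of P4ha1 and Pfkfb4. Without PBS replicate 1 the number was 2 (Slc16a1, Pfkfb4), beside 6.18% of all genes, and without PBS replicate 2 it was also 2 (Slc16a1, Slc2a1), beside 6.05%.

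**Figure D2:**
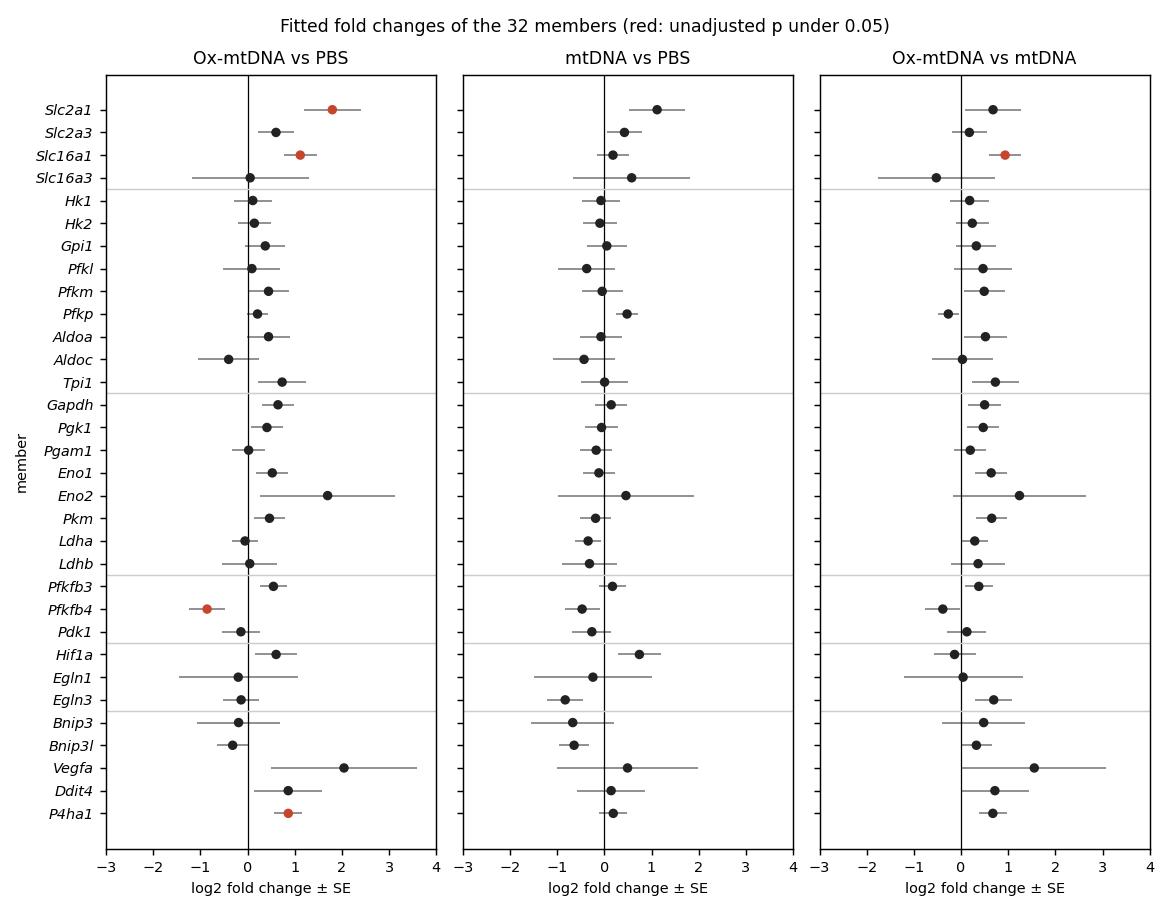
Fitted log2 fold change of the 32 members in the 3 comparisons. Points are edgeR estimates with all 9 libraries in 1 model, bars are ± 1 SE, grey lines divide the members by role, and red marks an unadjusted p under 0.05. Red points are Slc2a1, Slc16a1, P4ha1 and Pfkfb4 between Ox-mtDNA and PBS, and Slc16a1 between Ox-mtDNA and mtDNA, while Vegfa, Eno2, Egln1 and Slc16a3 have the widest bars.

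Among the transporters, Slc2a1 encodes GLUT1, the widespread glucose carrier (ENSMUSG00000028645.12, GRCm39 chromosome 4, 118965908 to 118995180). Its level was 33.4, 40.9 and 35.8 CPM after PBS, a mean of 36.7 ± 3.84 CPM (SD, n = 3). After Ox-mtDNA it was 114, 121 and 147 CPM, a mean of 127 ± 17.1 CPM (SD, n = 3). Every Ox-mtDNA library lay above every PBS library, with a gap far wider than the spread within either group. Its log2 fold change was 1.80 ± 0.60 (SE, adjusted p = 0.472, edgeR quasi-likelihood). It ranged from 1.63 to 1.86 over the 16 other settings, and the differences of same-numbered libraries were 1.78, 1.56 and 2.03. After mtDNA, Slc2a1 was at 34.9 and 35.4 CPM in replicates 1 and 2 and at 169 CPM in replicate 3. That single library was the highest of all 9, and the other 2 sat within the PBS range. Gm12868 overlaps Slc2a1 by up to 105 bases on the other strand and held 114 to 607 counts per library, against 643 to 3102 for Slc2a1. The SE of Slc2a1 comes from a model that shares this spread between all 3 groups.

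Slc2a3 encodes GLUT3, a high-affinity glucose carrier of neurons and leukocytes. It was at 52.0, 61.4 and 70.3 CPM after PBS and at 87.1, 84.9 and 107 CPM after Ox-mtDNA. The groups did not overlap, although the distance was smaller than for Slc2a1, and the log2 fold change of 0.60 ± 0.37 (SE) had an adjusted p of 0.699 with edgeR. The mtDNA libraries were at 52.3, 61.3 and 133 CPM, again with replicate 3 far above the others. Per kilobase, Slc2a1 gave 43.8%, 44.7% and 38.2% of the summed Slc2a1 and Slc2a3 level after PBS. After Ox-mtDNA its share was 61.5%, 63.4% and 62.6%. After mtDNA it was 44.7% and 41.3% in replicates 1 and 2 and 60.6% in replicate 3. All 3 Ox-mtDNA shares were above all PBS shares and lay within a narrow range.

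Slc16a1 encodes MCT1, which moves lactate and pyruvate across the plasma membrane (ENSMUSG00000032902.2, GRCm39 chromosome 3, 104545984 to 104565778). It was at 18.8, 13 and 15.7 CPM after PBS, a mean of 15.8 ± 2.90 CPM (SD, n = 3). After mtDNA it was at 16.1, 12.4 and 25.5 CPM, and after Ox-mtDNA at 34.0, 41.0 and 28.0 CPM. All 3 Ox-mtDNA libraries were above all 6 others, the only member with such an order in both comparisons of Ox-mtDNA. Its log2 fold change against PBS was 1.12 ± 0.35 (SE, adjusted p = 0.472, edgeR). It stayed between 0.95 and 1.27 over the 16 other settings. Slc16a3 encodes MCT4, the exporter of strongly glycolytic cells, and remained low: 0.46 to 4.28 CPM after PBS, 0.71 to 6.17 after mtDNA and 0.26 to 6.88 after Ox-mtDNA. It lies across the Csnk1d gene by up to 317 bases on the other strand, and reads of the pair could not be separated by strand.

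**Figure D3:**
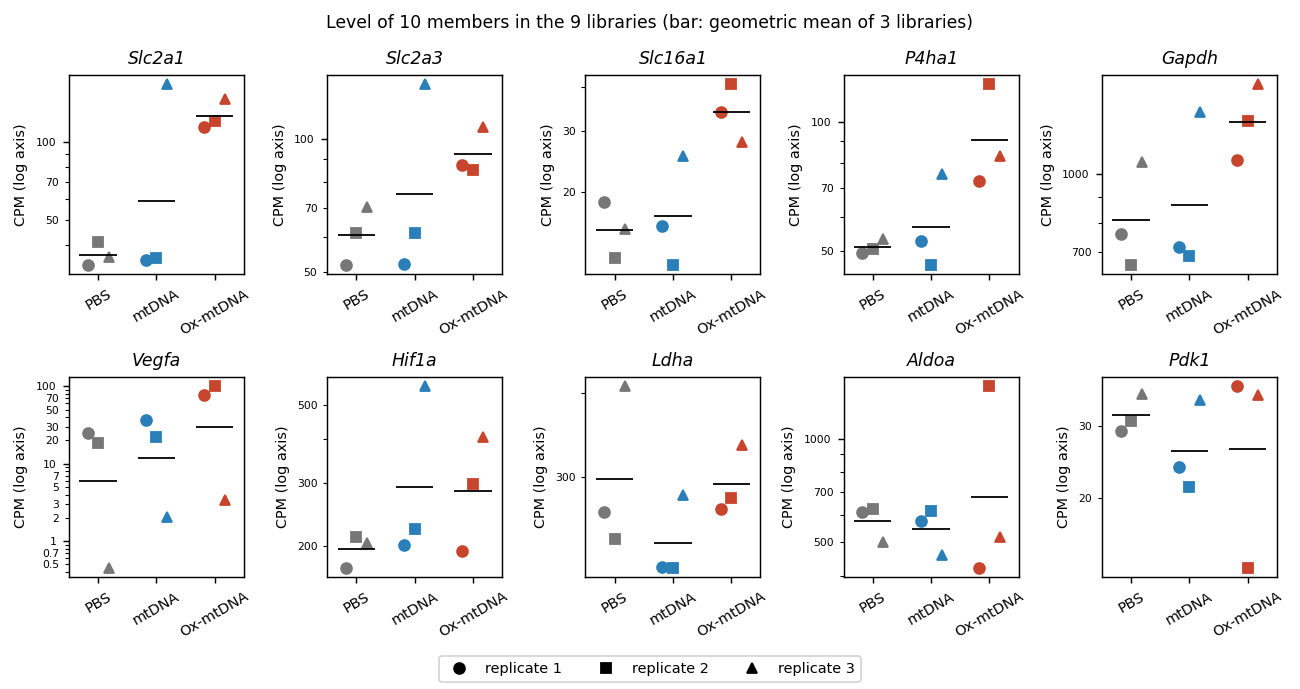
Level of 10 members in the 9 libraries, as CPM on a log axis that differs between panels. Symbols mark the replicate number (circle 1, square 2, triangle 3), colours the group, and bars the geometric mean of 3 libraries. Slc2a1, Slc2a3, Slc16a1, P4ha1 and Gapdh have all Ox-mtDNA points above all PBS points; the mtDNA triangle lies near, within or above the Ox-mtDNA range for these 5 genes, and the triangles of Vegfa lie far under its other points.

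Of the 9 enzymes and isoforms of upper glycolysis, from hexokinase to triose phosphate isomerase, 8 had a positive log2 fold change between Ox-mtDNA and PBS, with a median of 0.21. None had an unadjusted p under 0.05 and none separated the groups. Hk2, the inducible hexokinase that traps glucose in the cell, was at 30.2, 28.5 and 24.2 CPM after PBS and at 44.5, 20.2 and 26.9 CPM after Ox-mtDNA. Replicate 1 of Ox-mtDNA was the highest and replicate 2 the lowest, so that the group enclosed all PBS values. The log2 fold change of Hk2 was 0.14 ± 0.35 (SE, adjusted p = 1.0, edgeR), and without Ox-mtDNA replicate 1 it was -0.24. Gpi1, which turns glucose 6-phosphate into fructose 6-phosphate, was at 435, 371 and 608 CPM after PBS and at 577, 392 and 864 CPM after Ox-mtDNA.

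Aldoa, the main aldolase, was at 612, 624 and 499 CPM after PBS, at 574, 614 and 460 CPM after mtDNA and at 422, 1419 and 516 CPM after Ox-mtDNA. Only Ox-mtDNA replicate 2 was above the PBS range, and Ox-mtDNA replicate 1 was the lowest library of all. Without replicate 2 the log2 fold change of Aldoa was -0.32, against 0.44 ± 0.45 (SE) with it. A second, shorter gene entry with the symbol Aldoa held 4 to 55 counts per library and was not used. Tpi1, the triose phosphate isomerase, was at 60.4, 43.6 and 96.5 CPM after PBS and at 102, 84.6 and 147 CPM after Ox-mtDNA. The 2 groups overlapped, yet each Ox-mtDNA library was above the PBS library of its number, by 0.75, 0.96 and 0.60 log2 units. So it was for 3632 of all 17555 tested genes. Spsb2 overlaps Tpi1 by up to 186 bases on the other strand, with 121 to 1931 counts per library against 673 to 2840 for Tpi1. In the fit, the log2 fold change of Tpi1 was 0.73 ± 0.51 (SE, adjusted p = 0.758, edgeR), and with the replicate block it was 0.78 ± 0.23 (adjusted p = 0.160).

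Lower glycolysis and lactate formation held 8 members, of which 7 had a positive log2 fold change between Ox-mtDNA and PBS, with a median of 0.44. Gapdh was at 759, 658 and 1060 CPM after PBS and at 1069, 1277 and 1521 CPM after Ox-mtDNA (GRCm39 chromosome 6, 125138816 to 125143430). The highest PBS library and the lowest Ox-mtDNA library nearly met. Its log2 fold change was 0.64 ± 0.34 (SE, adjusted p = 0.612, edgeR), and 0.66 ± 0.19 with the replicate block (adjusted p = 0.151). Gapdh is often taken as a constant reference gene, and here its level per library ran from 658 to 1521 CPM.

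Eno1, Pkm and Pgk1, the enolase, pyruvate kinase and phosphoglycerate kinase of most cells, shared one pattern. Pkm was at 702, 644 and 566 CPM after PBS and at 590, 1332 and 715 CPM after Ox-mtDNA. Eno1 was at 228, 205 and 326 CPM after PBS and at 246, 482 and 361 CPM after Ox-mtDNA. Pgk1 was at 154, 118 and 225 CPM after PBS and at 174, 235 and 252 CPM after Ox-mtDNA. The difference of same-numbered libraries was largest in replicate 2 for all 3, at 1.05 for Pkm, 1.24 for Eno1 and 0.99 for Pgk1. In replicates 1 and 3 these differences lay between -0.25 and 0.34. Gm49759 overlaps Pkm by up to 334 bases on the same strand and held 2077 to 6894 counts per library, against 8736 to 25179 for Pkm. Ox-mtDNA replicate 2 was the highest library for 12 of the 32 members and the lowest for 6, and the members summed to 7010 CPM in it. The sums were 4270, 3952 and 4794 CPM after PBS, 3874, 3807 and 5551 CPM after mtDNA, and 4755 and 6038 CPM in replicates 1 and 3 of Ox-mtDNA.

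Ldha, the muscle-type subunit that turns pyruvate into lactate, was at 267, 243 and 409 CPM after PBS, at 221, 221 and 283 CPM after mtDNA and at 270, 280 and 335 CPM after Ox-mtDNA. PBS replicate 3 was the highest library, and the Ox-mtDNA values fell inside the PBS range. For Ldha the log2 fold change was -0.06 ± 0.27 (SE, adjusted p = 1.0, edgeR), and without PBS replicate 3 it was 0.20. Ldhb, the heart-type subunit, was far less abundant, between 4.02 and 15.5 CPM over the 9 libraries. Its share of both subunits per kb was lowest in Ox-mtDNA replicate 2, at 2.04%. Pgam1, the phosphoglycerate mutase, was between 30.6 and 67.6 CPM. Eno2 was at most 2.43 CPM and had no count in PBS replicate 3.

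Pfkfb3, Pfkfb4 and Pdk1 regulate flux. The Pfkfb enzymes make and break down fructose 2,6-bisphosphate, the activator of phosphofructokinase. Pfkfb3, the isoform with the strongest kinase activity, was at 37.4, 32.3 and 25.9 CPM after PBS, at 30.9, 28.7 and 48.1 CPM after mtDNA and at 45.9, 40.6 and 53.2 CPM after Ox-mtDNA. All 3 Ox-mtDNA libraries were above the PBS range, and the log2 fold change was 0.55 ± 0.29 (SE, adjusted p = 0.616, edgeR). Pfkfb4 was at 17.8, 29.5 and 23.5 CPM after PBS and at 17.8, 8.25 and 13.1 CPM after Ox-mtDNA (GRCm39 chromosome 9, 108820846 to 108861296). Replicate 1 was almost equal in both groups, so the groups nearly touched, and the lowest value came from Ox-mtDNA replicate 2. Its fitted log2 fold change was -0.86 ± 0.37 (SE, adjusted p = 0.508, edgeR).

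The pair differed in direction, and the share of Pfkfb3 in their summed level per kb was 57.0%, 40.8% and 41.0% after PBS. It was 62.0%, 75.6% and 72.0% after Ox-mtDNA, above all PBS libraries. That order must follow from the levels above, higher for Pfkfb3 and lower for Pfkfb4 without overlap, and is no further result. After mtDNA the share was 54.9%, 45.8% and 69.0%, which overlapped both. Pdk1, the kinase that keeps pyruvate out of the citric acid cycle and a well-known HIF-1 target, was at 29.2, 30.9 and 36.0 CPM after PBS. After Ox-mtDNA it was at 37.6, 13.5 and 35.9 CPM. Replicate 2 alone was under the PBS range, and without it the log2 fold change was 0.18, against -0.14 ± 0.41 (SE) with it.

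The factor itself was measured through Hif1a, which encodes HIF-1alpha (ENSMUSG00000021109.14, GRCm39 chromosome 12, 73948149 to 73994304). It was at 174, 213 and 204 CPM after PBS, at 202, 223 and 563 CPM after mtDNA and at 194, 298 and 405 CPM after Ox-mtDNA. Replicate 3 was the highest library in both treated groups, while replicate 1 of both lay within the PBS range. The log2 fold change between Ox-mtDNA and PBS was 0.60 ± 0.45 (SE, adjusted p = 0.788, edgeR), and without Ox-mtDNA replicate 3 it was 0.27. HIF-1alpha is controlled mainly through protein stability, which mRNA counts do not show. Gm15283 overlaps Hif1a by up to 990 bases on the other strand, so reads of that gene could be counted for Hif1a. Egln3, the oxygen sensor that HIF-1 itself induces, was at 11.5, 13.6 and 9.11 CPM after PBS, at 6.51, 5.40 and 7.34 CPM after mtDNA and at 10.5, 14.5 and 6.09 CPM after Ox-mtDNA. All mtDNA libraries were under all PBS libraries for this gene, and the Ox-mtDNA libraries spanned both.

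Among the other hypoxia-response genes, P4ha1 encodes the catalytic subunit of the prolyl hydroxylase of collagen (GRCm39 chromosome 10, 59159118 to 59209126). It was at 49.5, 50.5 and 53.5 CPM after PBS, at 52.7, 46.4 and 75.7 CPM after mtDNA and at 72.9, 123 and 83.2 CPM after Ox-mtDNA. The PBS libraries lay close together, and all Ox-mtDNA libraries were above them. For P4ha1 the log2 fold change was 0.86 ± 0.29 (SE, adjusted p = 0.472, edgeR), and without Ox-mtDNA replicate 2 it was 0.59.

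Vegfa, the vascular growth factor, was at 24.8, 18.6 and 0.46 CPM after PBS, at 37.1, 22.3 and 2.07 CPM after mtDNA and at 76.6, 100 and 3.35 CPM after Ox-mtDNA (GRCm39 chromosome 17, 46327919 to 46343295). Within each replicate number Ox-mtDNA was the highest library and PBS the lowest. The groups overlapped because replicate 3 lay far under the others in all 3. Its fitted log2 fold change was 2.04 ± 1.55 (SE, adjusted p = 0.802, edgeR). With the replicate block it was 2.21 ± 0.38 (SE, adjusted p = 0.115), and with replicates 1 and 2 only it was 2.04 ± 0.33 (adjusted p = 0.118). The differences of same-numbered libraries from PBS were 1.63, 2.43 and 2.83 after Ox-mtDNA and 0.58, 0.27 and 2.14 after mtDNA.

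Ddit4 encodes REDD1, a stress-induced brake on mTORC1. It was at 25.3, 26.5 and 11 CPM after PBS and at 36.9, 69.1 and 7.79 CPM after Ox-mtDNA, higher in replicates 1 and 2 and lower in replicate 3. Bnip3 and Bnip3l encode mitophagy receptors of the outer mitochondrial membrane. Bnip3 was at 15.4, 17.5 and 20.9 CPM after PBS, at 14.2, 15.2 and 4.40 CPM after mtDNA and at 6.08, 37.9 and 3.10 CPM after Ox-mtDNA. The mtDNA libraries were all under the PBS libraries, while the Ox-mtDNA libraries held both the highest and the lowest value of the 9. Gm45507 overlaps Bnip3 by up to 666 bases on the other strand. Bnip3l was between 73.1 and 205 CPM, with PBS replicate 3 highest.

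**Figure D4:**
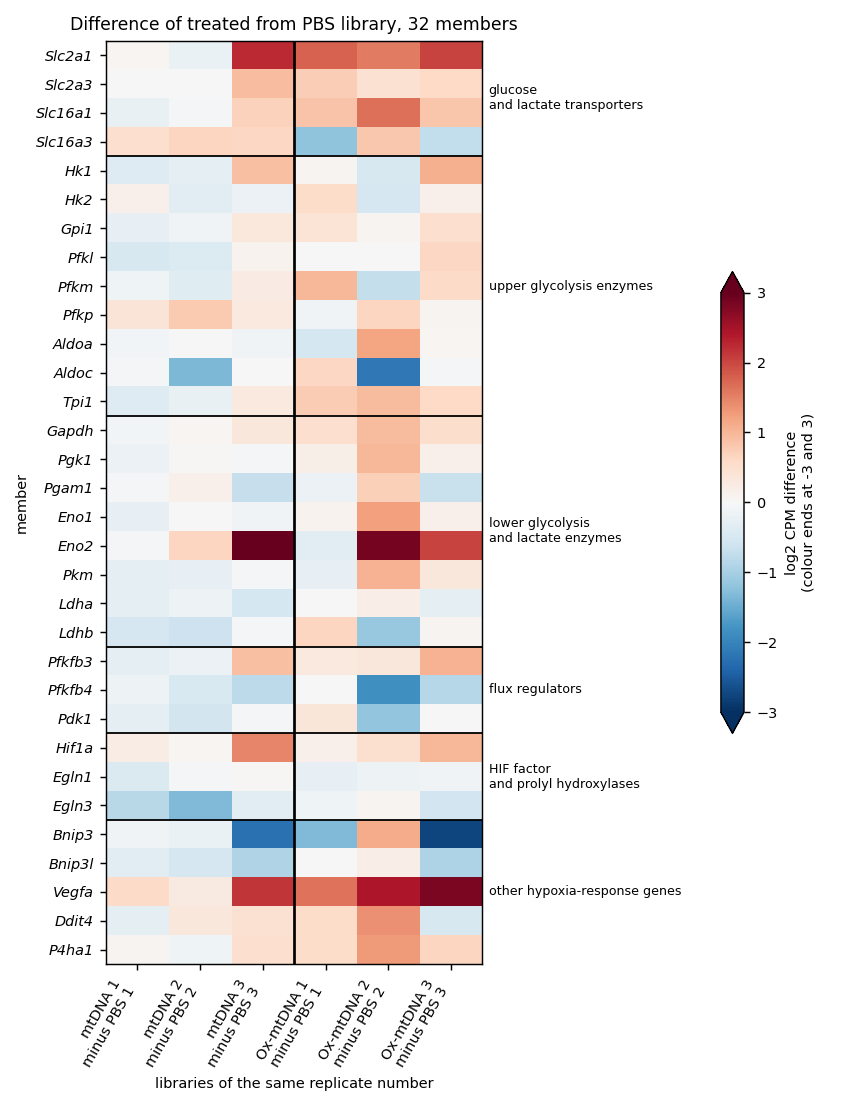
Difference of each treated library from the PBS library of the same replicate number, in log2 CPM, for the 32 members ordered by role. Red is higher and blue lower than PBS, with the colour scale ending at -3 and 3; the left 3 columns are mtDNA and the right 3 Ox-mtDNA. Slc2a1 and Vegfa are red in all 3 Ox-mtDNA columns (1.56 to 2.83), while in the mtDNA columns Slc2a1 is red only for replicate 3 (2.23).

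The second comparison, mtDNA against PBS, shares the PBS libraries with the first. Of the 32 members, 14 had a positive log2 fold change, with a median of -0.07 against 0.02 over all tested genes. All 8 B cell markers were negative here, with a median of -0.84, and levels of 4 did not overlap and were lower. Of 14 pDC markers, 11 were negative and 3 positive, with a median of -0.12. The part of these markers in the members' result was not tested. edgeR's quasi-likelihood test called 0 members at an adjusted p under 0.05, and the share over all genes was 0%. At an unadjusted p under 0.05 the number of members was also 0, where all genes gave 2.02% higher and 0.598% lower. DESeq2 called 14 genes and limma-voom none after adjustment, of which 0 were members, and at an unadjusted p under 0.05 they gave 2 members (4.22% of all genes) and 1 member (1.8%). Levels did not overlap for 1 higher member, Pfkp (5.58% of all genes), and for 2 lower members, Egln3 and Bnip3 (4.96% of all genes). Leaving out mtDNA replicate 1 or 2 gave 1 member (Slc2a1, beside 2.82% and 2.61% of all genes), and leaving out PBS replicate 2 gave 1 (Bnip3l, beside 1.56%). With the replicate block, 2 members (Bnip3l, Vegfa) had an unadjusted p under 0.05, beside 5.68% of all genes. With replicates 1 and 2 only, they were Egln3 and Pfkp, beside 2.62%.

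Pfkp was at 141, 110 and 135 CPM after PBS and at 184, 190 and 164 CPM after mtDNA. All mtDNA libraries were above the PBS range, and the log2 fold change was 0.48 ± 0.23 (SE, adjusted p = 1.0, edgeR). After Ox-mtDNA Pfkp was at 130, 172 and 143 CPM, which overlapped both groups. Pfkp and Pitrm1 overlap by up to 1023 bases on opposite strands, so part of either count can come from the other gene. Egln3 had a log2 fold change of -0.83 ± 0.39 and Bnip3l of -0.64 ± 0.32 (SE, both with an adjusted p of 1.0, edgeR).

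Several members had a high value in mtDNA replicate 3 alone. The log2 fold change of Slc2a1 against PBS was 1.12 ± 0.59 (SE, adjusted p = 1.0, edgeR) with that library and -0.12 without it. For Hif1a it was 0.74 ± 0.45 with it and 0.05 without it. The median difference of the members from the PBS library of the same number was -0.16, -0.13 and 0.17 in replicates 1, 2 and 3. The differences of the transporters from PBS in replicates 1 and 2 were unequal after mtDNA. Those of Slc2a1 were 0.06 and -0.21, those of Slc2a3 0.01 and 0.00 and those of Slc16a1 -0.23 and -0.07. Those of the sparsely counted Slc16a3 were 0.49 and 0.65.

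The third comparison, Ox-mtDNA against mtDNA, uses the Ox-mtDNA libraries of the first and the mtDNA libraries of the second. Of the 32 members, 28 had a positive log2 fold change, with a median of 0.42 against 0.04 over all tested genes. In the same comparison, all 8 B cell markers were positive, with a median of 0.78. Of 14 pDC markers, 11 were negative and 3 positive, with a median of -0.23. The part of these markers in the members' result was not tested. edgeR's quasi-likelihood test called 0 members at an adjusted p under 0.05 (0% of all genes), as did DESeq2 (1 gene in all) and limma-voom. At an unadjusted p under 0.05, 1 member was higher, Slc16a1 (0.923% of all genes), and 0 were lower (1.48% of all genes). Levels did not overlap for 2 higher members, Slc16a1 and Pkm (2.04% of all genes), and for 0 lower members (2.79% of all genes). The log2 fold change of Slc16a1 was 0.93 ± 0.34 (SE) and that of Pkm 0.65 ± 0.32 (SE), both with an adjusted p of 1.0 in edgeR.

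This comparison depended on mtDNA replicate 3. Without that library, the members' median was 0.68 and 6 had an unadjusted p under 0.05: Slc16a1, Slc2a1, Slc2a3, Tpi1, Gapdh and P4ha1. The share over all genes at that level was 7.23% without the library and 2.4% with it. The log2 fold change of Slc2a1 was 0.68 ± 0.59 (SE, adjusted p = 1.0, edgeR) with it and 1.90 without it. With replicates 1 and 2 only, 14 members had an unadjusted p under 0.05, all higher after Ox-mtDNA, beside 15% of all genes in either direction. In that fit Slc2a1 was at 1.75 ± 0.20 (SE, adjusted p = 0.0611, edgeR), and 0 genes passed the adjusted threshold. With the replicate block on all 9 libraries, 6 members had an unadjusted p under 0.05 (Slc16a1, Eno1, Tpi1, Gapdh, P4ha1, Vegfa), beside 6.81% of all genes. Leaving out mtDNA replicate 1 or 2 gave 0 such members, beside 0.84% and 0.642% of all genes. Leaving out Ox-mtDNA replicate 1 gave 2 (Pkm, P4ha1), beside 1.59%, and leaving out Ox-mtDNA replicate 3 gave 3 (Slc16a1, Ddit4, Egln3), beside 3.42%. By libraries of the same number, the median difference of the members was 0.47, 0.54 and 0.13.

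Other genes of the same pathways were taken from lists of their own. Of 33 other hypoxia-response targets, 28 were tested, and 21 had a positive log2 fold change between Ox-mtDNA and PBS with a median of 0.46. At an unadjusted p under 0.05, 6 of them were higher and 1 was lower, where all genes gave 5.88% and 3.93%, and 0 passed the adjusted threshold in edgeR. By libraries of the same number, the list's median difference was -0.01, 0.87 and 0.28, highest in replicate 2, where the Ox-mtDNA library stood apart in its markers. Adm, the vasodilator adrenomedullin, was at 2.42, 1.75 and 1.18 CPM after PBS, at 3.79, 2.64 and 19.4 CPM after mtDNA and at 4.66, 30.1 and 6.19 CPM after Ox-mtDNA. Bhlhe40, a repressor of the clock and of cytokine genes, was at 98.8, 139 and 124 CPM after PBS and at 484, 406 and 220 CPM after Ox-mtDNA. All Ox-mtDNA libraries of both genes were above the PBS range. Their log2 fold changes were 2.94 ± 1.01 and 1.62 ± 0.56 (SE, adjusted p = 0.472 for both, edgeR). Hmox1, which breaks down haem, was at 814, 3478 and 58.9 CPM after Ox-mtDNA and at 299, 127 and 77.2 CPM after mtDNA, so that the Ox-mtDNA libraries lay on both sides of the mtDNA range.

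Of 12 tested further components of HIF control, 4 had a positive log2 fold change between Ox-mtDNA and PBS and 0 between mtDNA and PBS, with medians of -0.36 and -0.27. None had an unadjusted p under 0.05 in either comparison. Vhl, the ubiquitin ligase subunit that recognises hydroxylated HIF-1alpha, was at 53.2, 58.8 and 85.3 CPM after PBS and at 44.1, 51.4 and 36.3 CPM after Ox-mtDNA, with no overlap. Of 16 tested other isoforms and regulators of glycolysis, 6 were positive between Ox-mtDNA and PBS. At an unadjusted p under 0.05, 1 gene was lower, where all genes gave 3.93%. That gene was Bpgm, which makes 2,3-bisphosphoglycerate, at 16.0, 13.6 and 26.4 CPM after PBS and at 7.02, 8.09 and 8.46 CPM after Ox-mtDNA. Its groups lay well apart, and the log2 fold change was -1.25 ± 0.34 (SE, adjusted p = 0.472, edgeR).

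Of 8 tested pentose phosphate genes, 3 were positive between Ox-mtDNA and PBS, with a median of -0.10, and of 11 tested genes of pyruvate entry into mitochondria, 4 were positive, with a median of -0.08. Neither list had a member at an unadjusted p under 0.05, although levels did not overlap for 1 lower gene of the first (Rpia) and 2 lower genes of the second (Pdhx, Pdp2), against 8.08% of all genes. Of 23 genes of nutrient and growth control, 8 were positive between Ox-mtDNA and PBS. At an unadjusted p under 0.05, 1 was higher and 1 lower, where all genes gave 5.88% and 3.93%. The higher one was Myc, a growth factor-induced activator of glycolytic genes, at 9.21, 7.84 and 1.37 CPM after PBS and at 35.4, 37.8 and 9.80 CPM after Ox-mtDNA. The lower one was Prkaa1, a catalytic subunit of the energy sensor AMPK, at 58.8, 56.1 and 80.4 CPM after PBS and at 27.9, 43.5 and 28.9 CPM after Ox-mtDNA. Their log2 fold changes were 2.17 ± 0.75 and -0.96 ± 0.32 (SE, adjusted p = 0.472 for both, edgeR).

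In the comparisons with mtDNA, the other hypoxia-response targets were the one such list with members at an unadjusted p under 0.05. Between mtDNA and PBS, 16 of the 28 were positive, with a median of 0.08. Adm was higher and the adenylate kinase Ak4 lower at that level, where all genes gave 2.02% and 0.598%. Between Ox-mtDNA and mtDNA, 25 of the 28 were positive, with a median of 0.38 against 0.04 over all tested genes, and 2 were higher at that level, Jmjd6 and Hmox1, where all genes gave 0.923%. By libraries of the same number, that median was 0.12, 0.81 and 0.07, again highest in replicate 2. Ak4 was at 2.28, 1.96 and 3.57 CPM after PBS and at 1.17, 1.27 and 0.652 CPM after mtDNA, with no overlap. Jmjd6, a lysyl hydroxylase, was at 34.0, 51.7 and 28.1 CPM after Ox-mtDNA and at 19.4, 22.5 and 23.7 CPM after mtDNA, also with no overlap. None of them passed the adjusted threshold in edgeR's quasi-likelihood test.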

How the data were processed

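Gene expression was measured by RNA sequencing of polyadenylated RNA in 9 libraries, grouped by the treatment in their titles. The authors deposited raw counts per gene. Per the submitters' processing notes, fastp 0.23.4, STAR 2.7.11b, featureCounts 2.0.1 and the GRCm39 build were used. Per the file headers, fragments were counted over exons without strand, also for each of several overlapping genes, and multiply aligned fragments were not counted.

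Genes were filtered with filterByExpr (minimum count 10) and TMM-scaled in edgeR 4.0.16 (R 4.3.3). A robust quasi-likelihood model with 1 coefficient per group was fitted to 17555 genes and 9 libraries (6 residual degrees of freedom), with Benjamini-Hochberg adjustment over all genes and a threshold of 0.05. CPM are TMM-scaled, and log2 differences of libraries use a prior count of 0.5. GC contents are of GENCODE transcripts on GRCm38, and 1 gene symbol, Ero1a, was matched as Ero1l. Overlaps of genes were summed over pairs of listed exons, so shared bases can be counted more than once and the lengths given are upper limits. DESeq2 1.42.0, limma-voom (limma 3.58.1), other scalings, other filters and left-out libraries were alternatives. Model code was tested on simulated data.

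All 32 members could be named. Values per library were given for the 6 members with the smallest p per comparison, the 6 most abundant and 8 chosen genes, and for further members whose values were seen. The 2 genes with the smallest p were candidates from each other list. The members and lists were chosen with earlier results of these data known.

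Replicate numbers are shared between groups in the titles, and the labels do not say what they mark. Deviations of same-numbered libraries from their group means correlated in every pair (r of 0.481 to 0.889 across genes). Replicates 1 and 2 also correlated across numbers (0.514 to 0.685). With replicate 3 far from the other 2 in each group, replicates 1 and 2 deviate alike from the group mean. The correlations therefore cannot show whether the numbers 1 and 2 mark pairs. A fit with the number as a block is given beside each count it moved.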

Additional observations from a re-analysis of the deposited data

How the results depend on the processing

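No member passed the adjusted threshold in any of the 16 other settings. The number of genes past it was 370, 14 and 1 for Ox-mtDNA against PBS, mtDNA against PBS and Ox-mtDNA against mtDNA with DESeq2. For Ox-mtDNA against PBS it was 1 with the replicate block and 25 with replicates 1 and 2 only. The number of members at an unadjusted p under 0.05 moved as follows. Between Ox-mtDNA and PBS it was 8 with the replicate block, 8 with replicates 1 and 2 only and 8 with both together, and 2 to 4 when leaving out 1 library. Between mtDNA and PBS it was 2 with DESeq2, 1 with limma-voom, 2 with the replicate block, 2 with replicates 1 and 2 only, 1 with both together and 0 to 1 when leaving out 1 library. Between Ox-mtDNA and mtDNA it was 0 with upper quartile scaling, 2 with limma-voom, 0 with only the 6 libraries compared, 6 with the replicate block, 14 with replicates 1 and 2 only, 11 with both together and 0 to 6 when leaving out 1 library. The median of the members there was 0.30 to 0.68 when leaving out 1 library. The fit of replicates 1 and 2 with the block was chosen after the data were seen.

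Of 528 fold changes of single genes under other settings, 519 kept their sign and 9 reversed. Between Ox-mtDNA and PBS, leaving out 1 library gave -0.24 to 0.36 for Hk2 (lowest without Ox-mtDNA replicate 1), -0.38 to 0.18 for Pdk1 (highest without Ox-mtDNA replicate 2), -0.32 to 0.71 for Aldoa (lowest without Ox-mtDNA replicate 2) and -0.22 to 0.20 for Ldha (highest without PBS replicate 3). Ldha was 0.11 with replicates 1 and 2 only and 0.11 with the block added. Between mtDNA and PBS, Slc2a1 was -0.0812 with replicates 1 and 2 only, -0.0751 with the block added and -0.12 to 1.45 when leaving out 1 library (lowest without mtDNA replicate 3). The causes were not tested. Neither other scaling shifted the median of all genes by more than 0.1 log2 units. Counts of replicates differed far beyond counting error (16.4 to 395 times its variance), as 1 figure over all genes. Depth also limits the members with few counts, such as Eno2 (0 in 1 library) and Slc16a3 (down to 5).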
